A study of Mus musculus with 4 samples.

Results

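The receptor Smads Smad1, Smad2, Smad3, Smad5 and Smad9, the common partner Smad4 and the Smad ubiquitin ligases Smurf1 and Smurf2 were examined in embryonic mouse mandibles that made excess Bmp4. They were found by gene symbol in the probe annotation after older symbols had been replaced by current ones. All 8 genes were on the array, with 10 of its 29922 probes, among 16637 named genes. Smad4 and Smurf1 had 2 probes each and the other genes 1. The arrays held RNA of whole mandibles at E11.5 from C57BL/6 embryos, 2 arrays from wild-type controls and 2 from embryos with conditional Bmp4 overexpression, called Bmp4 OE, after 24 hours of doxycycline. Whether the controls had the drug, and which promoter or Cre drove the transgene, is not given in the sources used here, so a response to the drug and a response to Bmp4 cannot be told apart. Nothing in the labels says that the arrays of a group came from separate embryos, so each p-value reflects the spread between arrays alone, which may be technical.

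Bone morphogenetic proteins (BMPs) bind receptor kinases at the cell surface, which phosphorylate the tail of Smad1, Smad5 and Smad9. TGF-beta and activin receptors do the same to Smad2 and Smad3. Phosphorylated receptor Smads join Smad4, enter the nucleus and switch genes on or off. Smurf1 and Smurf2 are HECT-type ligases that tag Smads and their receptors for degradation. In the facial primordia this pathway helps to set where bone, cartilage and teeth form. It is relayed through protein phosphorylation, which an RNA measurement does not see.

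Each value is a log2 intensity that the authors had quantile-normalised, with a median of 7.95 and a maximum of 16 on every array. Levels of different probes are not compared with each other, because probes differ in their response. Bmp4 read 11.96 and 12.07 in the controls and 15.27 and 15.31 in Bmp4 OE, higher on the arrays labelled Bmp4 OE. All 8 markers of mandibular mesenchyme were measured and lay above the array median on every array, the lowest being Hand2 at 8.45 to 8.66 and Dlx5 at 8.49 to 8.73. Their summed level was 15.77 to 15.78 in controls and 15.33 to 15.34 in Bmp4 OE (log2). Of these markers 1 (Prrx2) was higher and 2 (Twist1 and Barx1) were lower. The lower sum rests mostly on Twist1 and Barx1, at -1.19 and -3.15 on the log2 scale. Prrx2 went the other way, at 1.17. The 5 markers that did not pass ranged from -0.50 (Dlx6) to 0.11 (Dlx5). Among them Prrx1 was at -0.17, Hand2 at -0.02 and Pdgfra at 0.02. The summed level of 6 epithelial markers was 12.89 to 13.01 in controls and 13.64 to 13.69 in Bmp4 OE, with 3 higher and 1 lower, and that of 5 neuronal markers went from 14.66 to 15.14 up to 15.70 to 15.75, with 1 (Isl1) higher. That last sum rests mostly on 1 probe of Elavl3, which did not pass and whose second probe had a log2 fold change of -0.03. Tubb3, Stmn2 and Neurog1, at 0.19, 0.40 and 0.50 on the log2 scale, did not pass either. Whether the Isl1 signal came from neurons was not tested. Endothelial, muscle and myeloid markers summed to 12.19 to 12.27, 11.75 to 11.89 and 10.88 to 11.03 in controls and to 12.44 to 12.49, 12.20 to 12.21 and at least 11.22 in Bmp4 OE. Of these lists the muscle list had 1 member higher and the others 0. The muscle sum rests mostly on 1 probe of Actc1, the member that was higher. The second Actc1 probe had a log2 fold change of -0.09. The counts of markers higher or lower are to be read against all named genes. Of those, 7.39% were higher and 9.54% lower at an adjusted p under 0.05 in limma. Erythroid markers summed to 17.59 to 17.63 and 17.55 to 17.58, a sum set by globin probes near the ceiling of the scale, and Alas2, the haem synthesis gene among them, fell (log2 fold change -0.58). The part of these marker differences in the values below was not tested. In whole mandibles, fewer cells of a type and less RNA per cell cannot be told apart.

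None of the 8 genes passed the test between Bmp4 OE and control. In limma 0 of 8 had an adjusted p under 0.05 at their brightest probe, against 16.9% of all named genes, and 1 of 8, Smad3, had an unadjusted p under 0.05, against 36.4%. By the study's own criterion, a 2-fold difference at p under 0.05 before adjustment, the count was 0 of 8, against 3.29% of named genes. The median log2 fold change of the 8 genes was 0.042 and the median absolute change 0.127, beside 0 and 0.230 for all named genes. Their changes ran from -0.21 in Smad2 to 0.46 in Smad3. The groups of arrays did not overlap for 3 of the 8 (Smad2, Smad3 and Smad4), against 63.3% of all named genes. All 10 probes had a 95% interval that lay within a 2-fold change in either direction, as did 89.5% of all probes. Without control replicate 2 or Bmp4 OE replicate 2, 9 of the 10 did. These intervals reached 0.30 to 0.41 to either side of their estimates on the log2 scale, and a gene that misses the threshold with 2 arrays per group may still have changed within them.

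**Figure D1:**
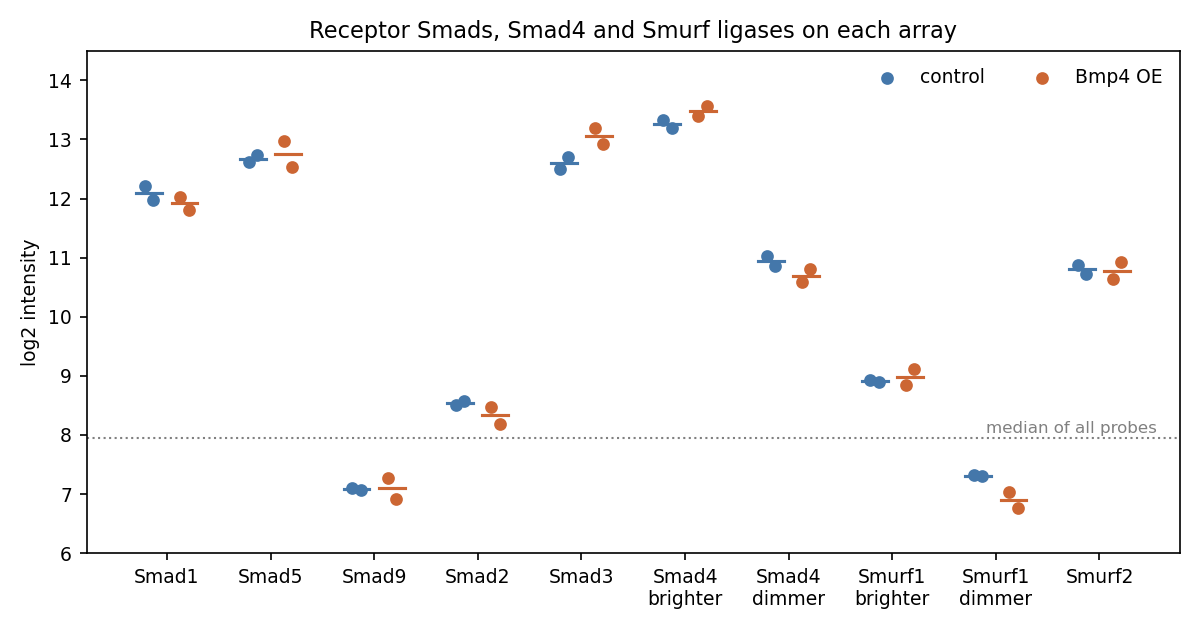
Log2 intensity (vertical axis) of the 10 probes on each of the 4 arrays, with control arrays in blue and Bmp4 OE arrays in orange, horizontal bars at the group means and a dotted line at the median of all probes, 7.95. Heights of different probes cannot be compared with each other; within a probe, the Smad3 arrays of the groups are separate, at 12.50 and 12.70 against 12.93 and 13.19, while those of Smad1, Smad5, Smad9 and Smurf2 overlap.

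Among the receptor Smads of the BMP branch no change was detected. Smad1, a main carrier of the BMP signal, read 12.21 and 11.97 in controls and 12.03 and 11.81 in Bmp4 OE. The higher Bmp4 OE array lay between the controls, so the groups overlapped. Its log2 fold change was -0.17 ± 0.14 (SE), with a 95% interval from -0.52 to 0.18 (limma, adjusted p = 0.448), and it lay between -0.29 and -0.05 when 1 array was left out. Smad5, its close relative with a largely shared function, read 12.61 and 12.73 in controls and 12.97 and 12.54 in Bmp4 OE. The Bmp4 OE arrays fell on either side of the controls. The log2 fold change was 0.09 ± 0.17 (SE), with an interval from -0.33 to 0.50 (limma, adjusted p = 0.768), and without Bmp4 OE replicate 1 it was -0.13. Smad9, the third receptor Smad of this branch and in some cell types itself induced by BMP, read 7.10 and 7.07 in controls and 7.28 and 6.92 in Bmp4 OE. These values were below the array median, where the range for a fall is small, and again the controls lay between the Bmp4 OE arrays. Its log2 fold change was 0.02 with an interval from -0.35 to 0.38, a fold between 0.784 and 1.30 (limma, adjusted p = 0.961), and it was -0.17 without Bmp4 OE replicate 1.

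The receptor Smads of the TGF-beta and activin branch had estimates of opposite sign. Smad3, a DNA-binding Smad of this branch, read 12.50 and 12.70 in controls and 13.19 and 12.93 in Bmp4 OE. Both Bmp4 OE arrays were above both controls. The log2 fold change was 0.46 ± 0.14 (SE), a 1.38-fold difference with an interval from 1.08 to 1.75, and it missed the threshold over all probes (limma, adjusted p = 0.0824). With a variance trend on intensity in limma the same difference had an adjusted p of 0.0449, and over all alternatives the adjusted p lay between 0.0449 and 0.352. The estimate stayed between 0.33 and 0.59 when 1 array was left out. An absolute change of this size stood at percentile 79.7 of all probes. Smad2, its partner, whose main splice form does not bind DNA directly, read 8.51 and 8.58 in controls and 8.47 and 8.19 in Bmp4 OE. The Bmp4 OE arrays were lower, the nearer one by less than the gap between the 2 controls. The log2 fold change was -0.21 ± 0.13 (SE), with an interval from -0.54 to 0.11 (limma, adjusted p = 0.316), and it lay between -0.36 and -0.08 when 1 array was left out. Whether Smad3 and Smad2 changed differently was not tested.

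Smad4, the partner shared by all receptor Smads, gave a different sign at each of its probes. The brighter probe (mMR031218) read 13.33 and 13.19 in controls and 13.40 and 13.57 in Bmp4 OE. The dimmer probe (mMC007586) read 11.03 and 10.86 in controls and 10.58 and 10.80 in Bmp4 OE. At neither probe did the groups overlap, the first being higher and the second lower in Bmp4 OE. Their log2 fold changes were 0.22 ± 0.12 and -0.25 ± 0.13 (SE), with intervals from -0.07 to 0.52 and from -0.58 to 0.07 (limma, adjusted p = 0.253 and 0.236). With 1 array left out they lay between 0.14 and 0.31 and between -0.37 and -0.15. The mean of the 2 probes differed by -0.01 ± 0.12 (SE) between the groups. The part of the Smad4 transcript that each probe reads is not given in the sources used here.

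Neither Smurf ligase passed at any probe. Smurf1, which acts mainly on the BMP-branch Smads, read 8.93 and 8.89 in controls and 8.84 and 9.12 in Bmp4 OE at its brighter probe (mMC025220). The controls lay between the Bmp4 OE arrays, and the log2 fold change was 0.07 with an interval from -0.26 to 0.40 (limma, adjusted p = 0.756). Without Bmp4 OE replicate 2 it was -0.07. Its dimmer probe (mMR029252) read 7.32 and 7.30 in controls and 7.04 and 6.76 in Bmp4 OE, without overlap. That difference was -0.41 ± 0.13 (SE), with an interval from -0.73 to -0.09, and missed the threshold (limma, adjusted p = 0.0909). It lay between -0.55 and -0.27 when 1 array was left out. Smurf2, which also acts on the TGF-beta branch, read 10.87 and 10.73 in controls and 10.64 and 10.92 in Bmp4 OE. The controls again lay between the Bmp4 OE arrays, and the log2 fold change was -0.02 with an interval from -0.36 to 0.32 (limma, adjusted p = 0.940). It was 0.05 without control replicate 1 and 0.12 without Bmp4 OE replicate 1.

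Because probes of 1 gene disagreed, the difference between the brighter and the dimmer probe was taken within each array and fitted for the 3566 genes with several probes, a measure chosen after the values had been seen. For Smad4 this difference was 2.30 and 2.33 in controls and 2.82 and 2.77 in Bmp4 OE (log2). The arrays of a group agreed to within 0.05, and the gap between the groups was wider than that. Its change was 0.48 ± 0.17 (SE), with an interval from 0.10 to 0.86, and missed the threshold over these genes (limma, adjusted p = 0.112). For Smurf1 the difference was 1.61 and 1.59 in controls and 1.80 and 2.36 in Bmp4 OE. Its change was 0.48 ± 0.22 (SE), with an interval from -0.02 to 0.98 (limma, adjusted p = 0.196). Of all genes with several probes, 6.51% passed at an adjusted p of 0.05, and the absolute changes of Smad4 and Smurf1 stood at percentile 75.2.

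**Figure D2:**
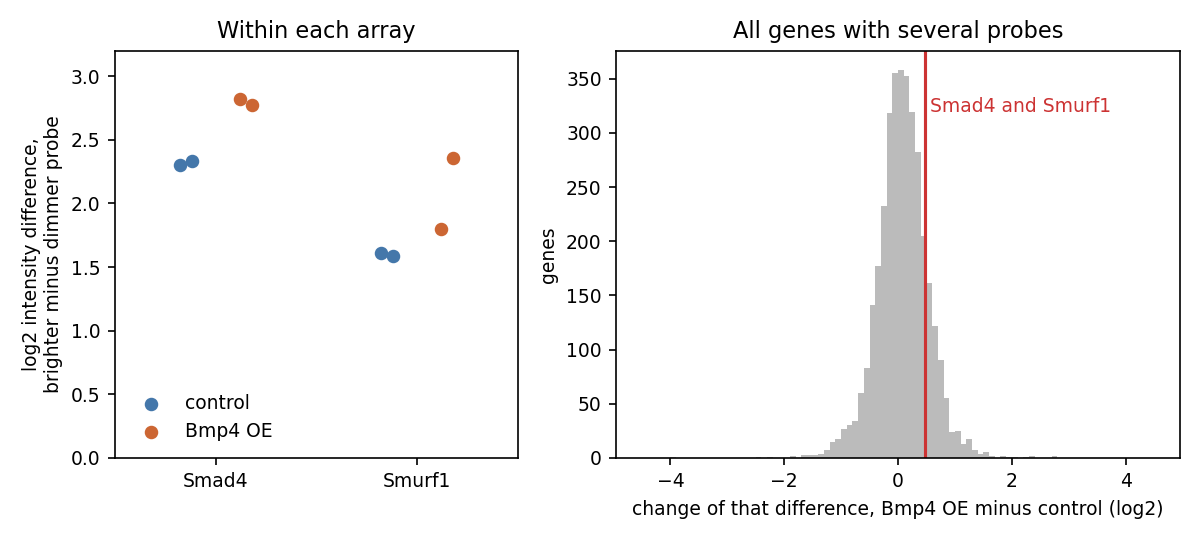
On the left, the log2 intensity difference of the brighter minus the dimmer probe of Smad4 and Smurf1 on each array (control blue, Bmp4 OE orange); on the right, the number of genes by the change of that difference, Bmp4 OE minus control, for the 3566 genes with several probes, with a red line at Smad4 and Smurf1. Smad4 moved from 2.32 to 2.80 on average and Smurf1 from 1.60 to 2.08, and a change of 0.48 lies in the right shoulder of the distribution, whose median is 0.07.

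**Figure D3:**
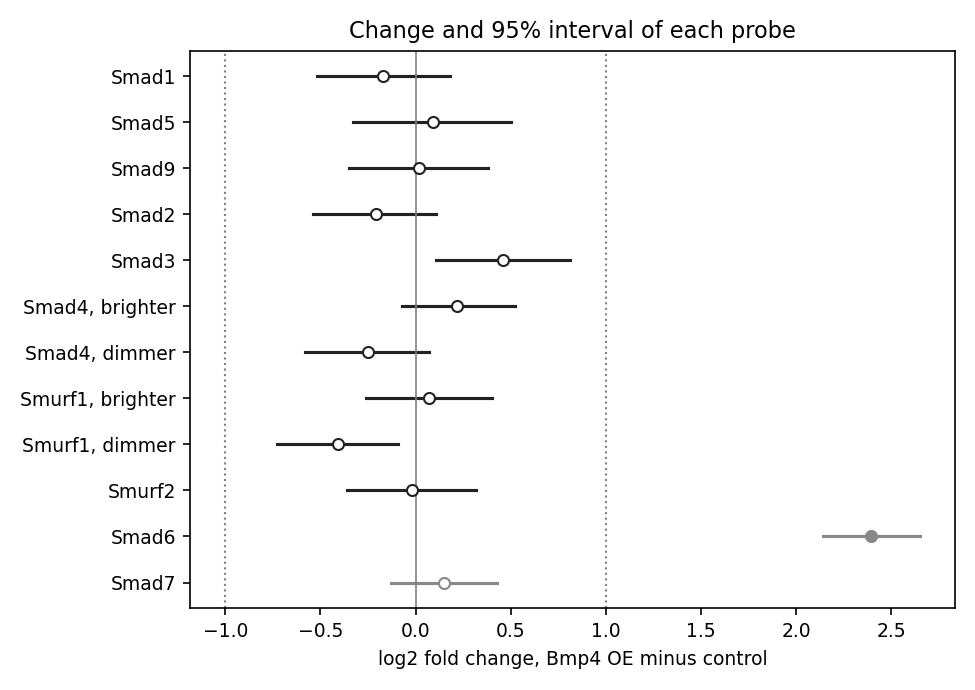
Log2 fold change of Bmp4 OE minus control (points) with its 95% interval (bars) for the 10 probes in black and for the inhibitory Smads Smad6 and Smad7 in grey; filled points passed an adjusted p of 0.05 and dotted lines mark a 2-fold change. All 10 black intervals stay between the dotted lines, whereas that of Smad6 runs from 2.14 to 2.65.

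The inhibitory Smads, which block receptor Smads and recruit Smurfs to the receptors, are induced by the pathway itself. Smad6 read 10.76 and 10.69 in controls and 13.10 and 13.14 in Bmp4 OE. It was 5.26-fold higher (limma, adjusted p = 0.00161). Its 95% interval, from 2.14 to 2.65 on the log2 scale, did not meet that of any of the 8 genes. Smad7 read 6.40 and 6.26 in controls and 6.53 and 6.43 in Bmp4 OE, below the lower quartile of 6.79, and its log2 fold change was 0.15 with an interval from -0.13 to 0.43 (limma, adjusted p = 0.405).

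Promoter sequence is shown for 3 Smad genes with unlike values here: Smad3, with the largest estimate among the receptor Smads, Smad5, with one near 0, and Smad6, which rose. Each sequence is the 200 bases before the outermost annotated start of the gene (RefSeq, GRCm38.p6), 5′ to 3′ on the gene's strand: Smad3 at chr9:63757995-63758194 (minus strand), Smad5 at chr13:56702810-56703009 (plus strand) and Smad6 at chr9:64022086-64022285 (minus strand). Capitals mark matches on either strand to GTCT, the core that Smads bind, to GGCGCC and to GCCGNCGC, GC-rich motifs linked to BMP-branch Smads; overlapping matches run together.
Smad3: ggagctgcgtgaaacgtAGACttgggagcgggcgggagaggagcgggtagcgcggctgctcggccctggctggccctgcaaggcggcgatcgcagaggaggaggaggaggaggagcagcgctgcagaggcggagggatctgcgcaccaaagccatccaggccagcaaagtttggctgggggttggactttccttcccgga
Smad5: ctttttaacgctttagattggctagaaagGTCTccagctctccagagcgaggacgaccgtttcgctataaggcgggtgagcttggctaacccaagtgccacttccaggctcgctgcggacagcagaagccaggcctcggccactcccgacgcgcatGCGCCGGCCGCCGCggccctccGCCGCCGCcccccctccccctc
Smad6: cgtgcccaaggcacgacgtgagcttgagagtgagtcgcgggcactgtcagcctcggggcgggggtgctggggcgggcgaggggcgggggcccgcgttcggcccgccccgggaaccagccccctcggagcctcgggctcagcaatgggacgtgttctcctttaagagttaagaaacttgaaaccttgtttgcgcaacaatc
The Smad3 window held 1 match to GTCT, the Smad5 window 1 to GTCT and 3 to GCCGNCGC, and the Smad6 window 0 to any of them. In the same windows of Smad1 and Smurf2, the first held 0 matches and the second 3 to GTCT and 1 to GGCGCC. Of 32851 promoters in the RefSeq table, 75.6% held GTCT, 8.43% GGCGCC and 6.08% GCCGNCGC within the 200 bases before their start. A match or its absence in this window describes these letters only.

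Other genes that act on or with the Smads were followed through 11 lists by role, of which 102 of 109 genes were measured. In limma 15 rose, 11 fell and 76 did not pass, and 9 of the 15 that rose were BMP target genes. The median absolute log2 fold change over these 102 genes was 0.237, beside 0.230 for all named genes, of which 7.39% rose and 9.54% fell. In the fit of all 4 arrays, 45 of the 102 had an unadjusted p under 0.05 in limma, beside 36.4% of all named genes. The 45 include BMP target genes, whose list is not independent of these data. With any 1 of the 4 arrays left out, 1 residual degree of freedom remained, and counts from those fits say little about these genes.

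Most of the listed BMP target genes rose, beside 7.39% of all named genes. The list was drawn up with earlier results of these data known, so its counts do not stand as a test. Of 12 measured, 9 rose, 0 fell and 3 did not pass, among them Id3, which read 15.87 to 16 on every array and had no room to rise. Their median change was 1.23 on the log2 scale. Id1, a helix-loop-helix inhibitor that BMP-branch Smads switch on directly, read 14.31 and 14.00 in controls and 15.62 and 15.33 in Bmp4 OE. The transcription factor genes Gata3, Gata2 and Hand1 and the BMP antagonist gene Nog had the largest changes of the list, between 1.94 and 3.64 on the log2 scale. Of 4 measured targets of the TGF-beta branch, 1 rose and 3 did not pass, beside 7.39% of all named genes that rose. The 1 that rose was Tgfbi, a secreted matrix protein induced by TGF-beta, at 12.96 and 13.00 in controls and 14.48 and 14.61 in Bmp4 OE. Among 12 type I and type II receptors 0 rose and 1 fell, beside 9.54% of all named genes that fell. The 1 that fell was the type I receptor gene Bmpr1b, at 9.99 and 9.98 in controls and 8.74 and 8.79 in Bmp4 OE. The other 2 probes of Bmpr1b, at -0.28 and -0.34 on the log2 scale, missed the threshold.

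Smad corepressors went both ways. Of 10 measured, 2 rose, 3 fell and 5 did not pass, while of all named genes 7.39% rose and 9.54% fell. Skil, also known as SnoN, which holds Smad complexes in a repressed state, read 11.37 and 11.49 in controls and 12.61 and 12.66 in Bmp4 OE. This is a log2 fold change of 1.20 ± 0.11 (SE; limma, adjusted p = 0.00576), but its second probe, below the lower quartile on all arrays, gave 0.02. Zeb2, a zinc finger repressor that binds receptor Smads, read 11.35 and 11.44 in controls and 12.31 and 12.18 in Bmp4 OE. Its log2 fold change was 0.85 ± 0.11 (SE; limma, adjusted p = 0.0129), and its other 2 probes gave 0.79 and 0.47. Tgif2, a homeobox corepressor, and Ctbp2, a corepressor of many DNA-binding factors, were lower past the threshold, at -0.66 and -0.59 on the log2 scale. The second Tgif2 probe, at -0.41, missed the threshold (limma, adjusted p = 0.0853). The antiproliferative gene Tob1, which restrains BMP Smads in bone cells, was the other that fell, at -0.58, and was picked out after its value was seen.

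Genes for other Smad partners are to be read against the 16.9% of all named genes that passed. Of 8 coactivators and DNA-binding partners 1 rose, Foxh1, which brings Smad2 or Smad3 with Smad4 to DNA. It read 10.73 and 11.13 in controls and 11.75 and 11.60 in Bmp4 OE, a log2 fold change of 0.74 ± 0.16 (SE; limma, adjusted p = 0.0387). Crebbp did not pass at its brightest probe, at -0.60 on the log2 scale, but its other 2 probes passed in opposite directions, at 0.55 and -0.55. Kat2a likewise did not pass at its brightest probe, at -0.17, but passed at its second probe, at -0.61. Of 11 anchors and transport genes 0 rose and 3 fell at their brightest probe. These were the importin genes Ipo7 and Ipo8 and the exportin gene Xpo4, whose products carry Smads through the nuclear pore, with log2 fold changes of -0.48, -0.45 and -0.47. Past the threshold only at their second probe were Dab2, higher at 0.59, and Ranbp3, lower at -0.74. At their brightest probes these 2 genes had log2 fold changes of 0.01 and -0.40. The second Dab2 probe was assigned to the gene through an older symbol. Of 10 Smad phosphatases and linker kinases, 1 fell, Cdk8, a kinase of the Mediator complex that phosphorylates the Smad linker, at -0.49 and, at its second probe, -0.77.

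The same background, 16.9%, applies to the other ubiquitin enzymes. Of 7 other ligases of the Nedd4 family, to which the Smurfs belong, 0 rose and 1 fell. Itch, the one that fell, read 10.76 and 10.78 in controls and 10.36 and 10.33 in Bmp4 OE, and its second probe gave a log2 fold change of 0.02. Nedd4 itself read 15.97 to 16 on all arrays, the ceiling of the scale, so that no rise could be seen. Of 15 further ubiquitin enzymes and adaptors, 1 fell, the deubiquitinase gene Uchl5, with a log2 fold change of -0.55 and, at its second probe, -0.14. Of 11 genes listed under Smurf substrates other than Smads, a grouping by reported links to the Smurfs, 1 rose and 1 fell. Prickle1, a planar cell polarity gene, had a log2 fold change of 0.58, and Mad2l1, a gene of the spindle checkpoint, one of -0.88. Whether the Smurfs act on the product of either gene was not tested.

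**Figure D4:**
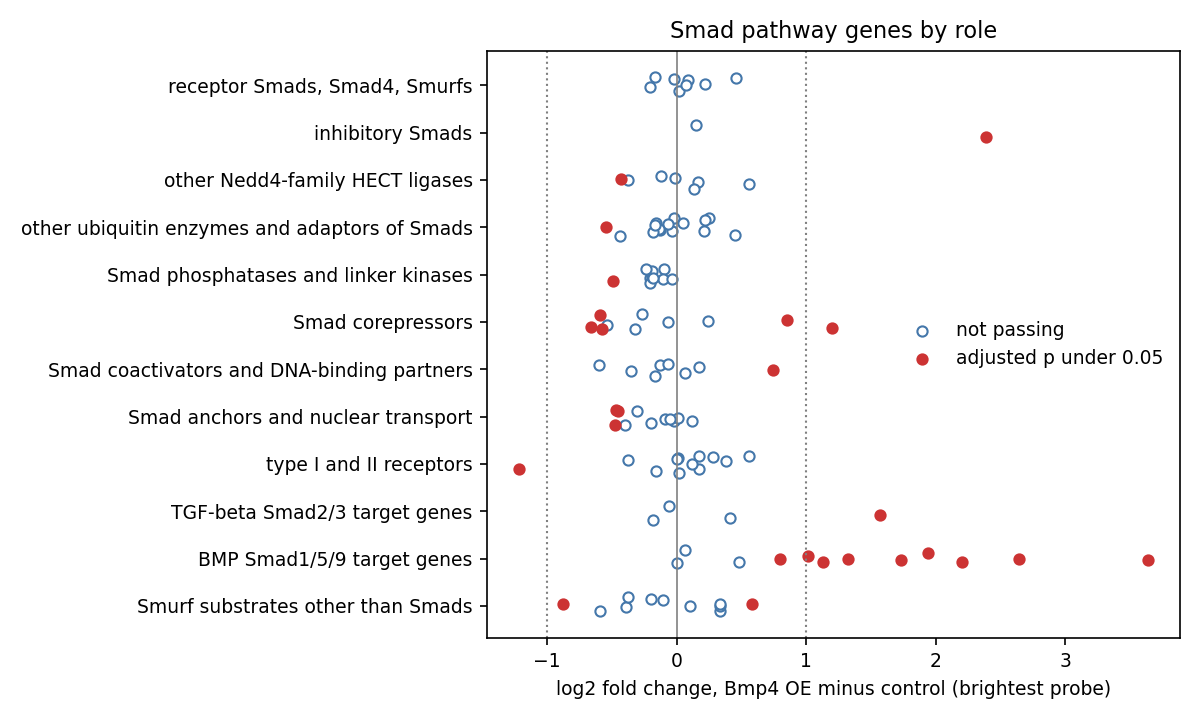
Log2 fold change of Bmp4 OE minus control at the brightest probe (horizontal axis) of each measured gene, by role, with 1 point a gene; vertical scatter within a row has no meaning, red points passed an adjusted p of 0.05 in limma and dotted lines mark a 2-fold change. The top row holds the 8 receptor Smads, Smad4 and Smurfs, all open and between -0.21 and 0.46. In the BMP target row, a list drawn up with earlier results of these data known, 9 of 12 genes are red and to the right.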

How the data were processed

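Total RNA was amplified to aminoallyl RNA and coupled to Cy5 for one-colour arrays, per the labels' protocols. The deposited table holds log2 intensity values for 29922 probes on 4 arrays. The log base was read from the maximum of 16, and the sorted columns are identical, so the values had been quantile-normalised, which hides any shift shared by most genes. Scanner, background correction and software: not given in the sources used here. Of the probes, 21020 had a gene symbol, 3410 of them updated through the GRCm38.p6 RefSeq table.

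All 4 arrays entered 1 fit per probe in limma 3.58.1 (R 4.3.3; lmFit and eBayes, two-sided), with Benjamini-Hochberg adjustment over all probes and no covariate. Residual degrees of freedom were 2 and prior degrees of freedom 3.59. With 2 arrays against 2, the smallest exact permutation p is 0.333. The brightest probe stood for a gene. Errors are standard errors of the fit. The fit was tested on simulated data.

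The genes and lists were chosen with earlier results of these data known. Named were all 8 genes with every probe, Smad6, Smad7, Bmp4 and Id1, and in each list up to 4 genes past the threshold. Tob1, Crebbp, Kat2a, Dab2, Ranbp3, Id2, Id3, Bambi, Nedd4 and the cell type markers were named in addition, after their values were seen. Alternatives changed normalisation, log scale, probe filter, variance model, threshold, probe rule, replicate block and the arrays used.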

Additional observations from a re-analysis of the deposited data

How the results depend on the processing

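With 2 arrays per group the precision is limited, and probes near 16 or below the lower quartile of 6.79 are compressed. Of 118 values of the 10 probes' log2 fold changes under alternatives, 5 turned sign, each with 1 array left out. Over the 4 omissions Smad5 ranged from -0.13 to 0.30, Smad9 from -0.17 to 0.19, the brighter Smurf1 probe from -0.07 to 0.21 and Smurf2 from -0.16 to 0.12; Smurf2 was also positive, at 0.05, without control replicate 1. The count of the 8 genes past the threshold was 0 except with a variance trend, where 1 gene, Smad3, passed. The 4427 probes and 26 list genes that passed in limma became 778 and 12 at the 2-fold threshold with an unadjusted p. Leaving out 1 array gave a range of 0 to 0 for all probes, for the 8 genes and for the list genes, with 6020 to 7947 probes at an unadjusted p under 0.05; the fit then had 1 residual degree of freedom. With the replicate number as a block, 0 probes, 0 of the 8 genes and 0 list genes passed, while 8724 probes, 0 of the 8 and 44 list genes had an unadjusted p under 0.05. The numbers are not known to pair the arrays: the gaps between replicates 1 and 2 of the groups correlated across probes with r = -0.0711. The cause of these changes, beyond the fewer degrees of freedom, was not tested.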

Other observations

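The arrays of the Bmp4 OE group differed more from each other than the control arrays did at 9 of the 10 probes, Smad1 being the exception, beside 49.3% of all probes. The genes whose pattern over the 4 arrays was nearest to that of Smad3, the gene with the smallest p among the 8, were Olfr1164, 4921536K21Rik, Zp3 and Ypel5, at distances of 0.009 to 0.030 between values centred on each gene's mean (log2). In all, 87 named genes lay within 0.1 of Smad3, so nearness over 4 arrays picks out many genes.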
